A study of Rattus norvegicus with 12 samples.

Results

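The C/EBP and ATF stress response was followed in PC12 cells treated with PACAP38 by 10 of the 33212 genes named on the array: Cebpb, Cebpd, Cebpg, Atf3, Atf4, Atf5, Ddit3, Ppp1r15a, Trib3 and Asns. Every probe that carried one of these names was taken, which gave 11 of 41012 probes, with 2 for Cebpg and 1 for each other gene, and all 11 passed the filter on dim probes. PC12 cells derive from a pheochromocytoma of the rat adrenal medulla, and PACAP38 is a neuropeptide that signals through the PAC1 receptor. The treated cells received PACAP38 at 1e-07 M for 5, 10, 15, 30, 60 or 120 min, and each treated sample was set against the control sample of the same time point, described only as control. RNA of each was pooled (n = 6) and hybridised on a pair of 2-colour whole rat genome arrays with the dyes exchanged, so that the 12 arrays hold 6 time points with 1 pair of pools each. A fold below is the geometric mean of both arrays of a time point, written with the fold of the array with PACAP38 in Cy5 first and that in Cy3 second. Both arrays measured the same pools, so their difference shows the error of labelling and hybridisation and not that between cultures, and no test of PACAP38 against control was possible at one time point.

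All 9 chromaffin cell markers with a probe (Th, Ddc, Dbh, Slc18a1, Chga, Chgb, Scg2, Syp and Snap25) were well above background in the control RNA on all 12 arrays. The endothelial, Schwann cell and adrenal cortex markers were above background on none, as were Ptprc, Cd3e, Gfap and Col3a1, while Col1a1, Pdgfra and Cd68 were above background on all 12, Col1a2 on 11 and the astrocyte marker Aqp4 on 10. Over all arrays, between 38.4 and 49.6% of the spots were well above background in the control RNA. The RNA came from whole cultures, so more cells with a transcript and more transcript per cell cannot be told apart.

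Most of these genes are linked to the integrated stress response. In it, kinases that sense amino acid shortage, misfolded protein in the endoplasmic reticulum, viral RNA or haem shortage phosphorylate the translation factor eIF2, which lowers protein synthesis and favours translation of the ATF4 mRNA. ATF4 then drives genes such as Ddit3 (CHOP), Trib3, Asns and Ppp1r15a, the last of which encodes GADD34, the subunit that directs protein phosphatase 1 to eIF2 and so ends the response. Several of the genes, Atf3 and Cebpb among them, are also known as immediate early genes of cAMP and MAP kinase signalling. ATF4 and ATF5 are controlled to a large part at translation, which an array of RNA does not measure.

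The promoters of a few members are shown because the bases near their start hold, or lack, the motifs known for cAMP signalling and for the ATF4 branch. The RefSeq promoter table (build GRCr8, 250 bases before to 50 after each gene's start) held 8 of the 10 genes, and Atf3 and Cebpd were the other ones. The 120 bases before the start are printed 5′ to 3′ on the gene's strand for Cebpb and for 3 targets of ATF4, namely Ppp1r15a, whose RNA like that of Cebpb was higher in PACAP38, and Trib3 and Asns, whose folds did not reach 2. Capitals mark every match, on either strand, to the cAMP response element TGACGTCA, its core TGACG, the AP-1 site TGANTCA, the C/EBP-ATF element TGATGNAAN, the C/EBP site TTGCNNAA or the CCAAT box. A full cAMP response element also counts as a match to its core on each strand. The capitals at the 3′ end of the Ppp1r15a sequence are the first part of an AP-1 match that runs across the start.
Cebpb, chr3:176816885-176817004, plus strand: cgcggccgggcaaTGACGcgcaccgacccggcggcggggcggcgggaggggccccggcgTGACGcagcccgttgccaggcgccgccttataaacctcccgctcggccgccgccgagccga
Ppp1r15a, chr1:105139597-105139716, minus strand: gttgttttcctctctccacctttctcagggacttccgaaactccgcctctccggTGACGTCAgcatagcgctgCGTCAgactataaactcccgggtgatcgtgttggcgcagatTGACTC
Trib3, chr3:161275534-161275653, minus strand: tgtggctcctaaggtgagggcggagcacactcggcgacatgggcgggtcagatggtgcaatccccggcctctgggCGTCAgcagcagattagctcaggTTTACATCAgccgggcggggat
Asns, chr4:36769416-36769535, minus strand: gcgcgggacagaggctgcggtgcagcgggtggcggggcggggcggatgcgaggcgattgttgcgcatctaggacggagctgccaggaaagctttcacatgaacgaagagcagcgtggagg

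Of the 8 genes, Ppp1r15a alone held the full cAMP response element, at 66 to 59 bases before its start, and 1.83% of the 33469 promoters in the table held it. The core was present in 4 of the 8 genes (Cebpb with 3 matches, Ppp1r15a with 4, Atf4 and Trib3 with 1 each), against 21.2% of all promoters. The C/EBP-ATF element was present in Trib3 only, at 22 to 14 bases before the start, against 3.97% of all promoters. The AP-1 site was found in 3 of the 8 (Atf5, Ddit3 and Ppp1r15a) against 7.33%, the C/EBP site in 2 (Atf5 and Ppp1r15a) against 10.6%, and the CCAAT box in 2 (Cebpg and Ddit3) against 37.5%. These are matches of letters, and binding was not measured. Only the window around the start given for each gene was searched, so a gene without a match may hold the motif elsewhere.

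PACAP38 gave a strong response in 3 of the 10 genes. Atf3, Cebpb and Ppp1r15a were counted as higher in PACAP38 at 30, 60 and 120 min, and Atf3 also at 15 min. A probe was counted when both arrays gave a fold of at least 2, or of at most 0.5, with a spot p-value below 0.01, which covers spot noise only. The number of member probes counted as higher was thus 0, 0, 1, 3, 3 and 3 of 11 over the 6 time points, and no member probe was counted as lower at any time. Of all 41012 probes, 0, 0.0658, 0.0902, 0.249, 0.87 and 1.95% were counted as higher at these times. The shares counted as lower were 0, 0, 0.0268, 0.102, 0.375 and 1.53%. Every member probe passed the filter on dim probes. Of the 18722 probes that did, 4.53% were counted as higher at any time and 3.96% as lower. The members were chosen with earlier results of these data known.

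**Figure D1:**
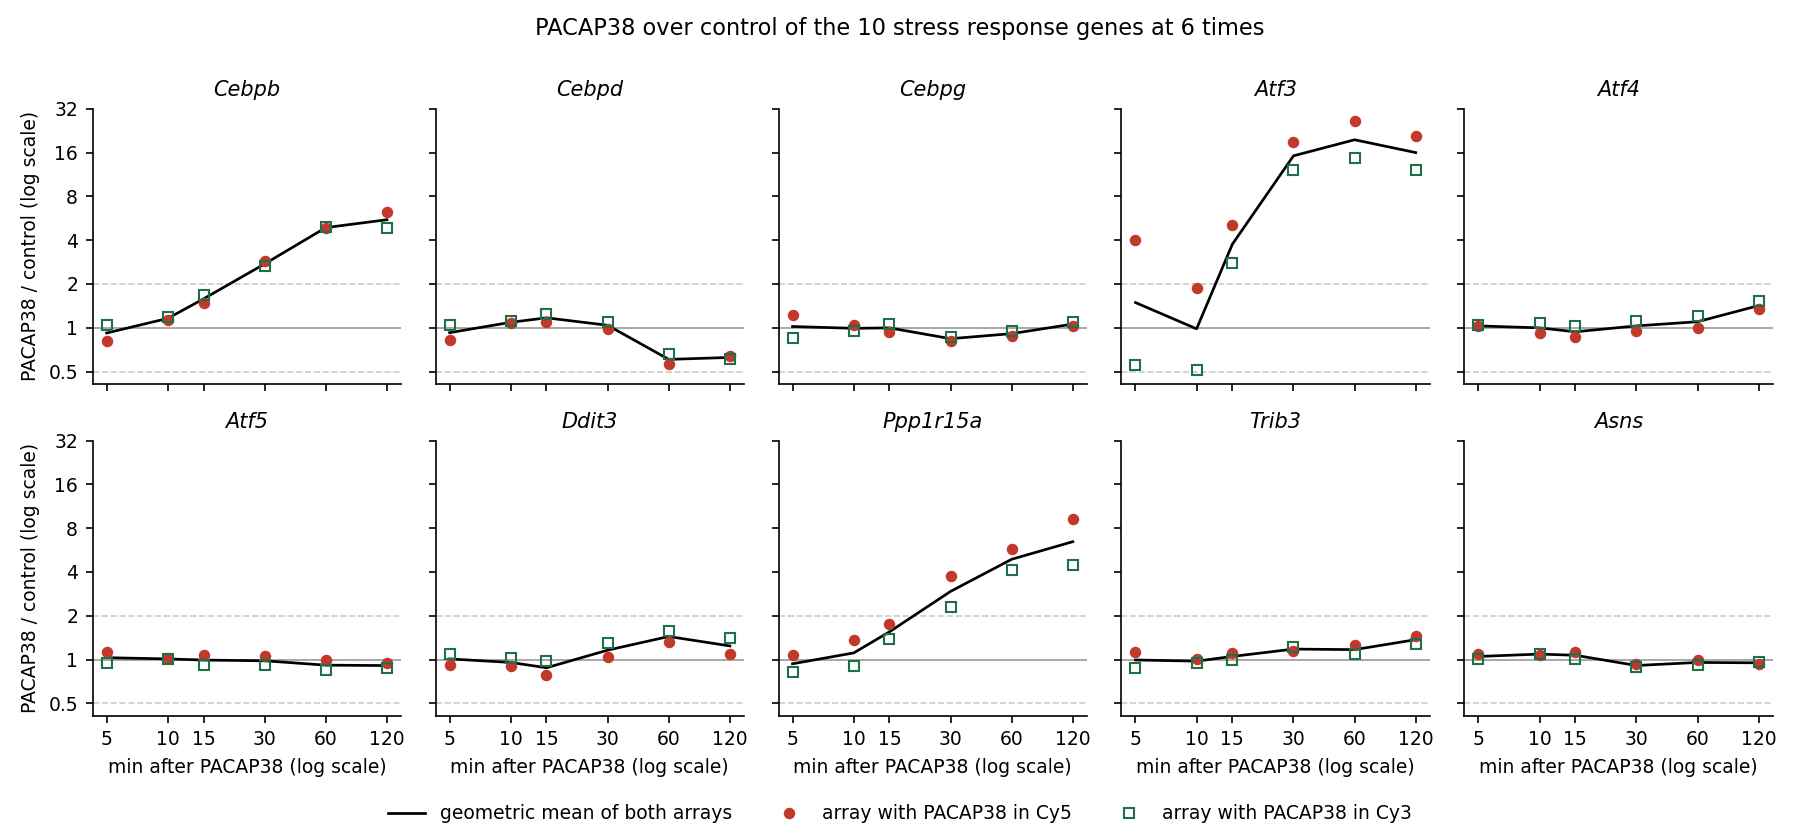
Each panel shows 1 gene, with min after PACAP38 on the x axis and PACAP38 over control on the y axis, both on log scales. Red circles are the array with PACAP38 in Cy5, green squares the array with PACAP38 in Cy3, the line is their geometric mean, and dashed lines mark folds of 2 and 0.5. Cebpb, Atf3 and Ppp1r15a lie above 2 on both arrays from 30 min on, and the 2 arrays of Atf3 lie on opposite sides of 1 at 5 and 10 min.

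Cebpb encodes C/EBPβ, a bZIP factor of differentiation, acute phase and early hormone responses, and was read by a probe (A_44_P348922, rn4 chr3:158827280-158827339) with 10 spots on each array. Its folds at 5, 10 and 15 min were 0.92 (0.807 and 1.05), 1.16 (1.13 and 1.18) and 1.58 (1.49 and 1.68). By 30 min the fold had reached 2.75 (2.86 and 2.64), followed by 4.88 (4.85 and 4.92) after 60 min and 5.53 (6.28 and 4.87) after 120 min. The SD of the log2 ratio over the 10 spots of an array was between 0.024 and 0.079, and the arrays of a time point differed by at most 0.38 on the log2 scale. With normexp the folds at 60 and 120 min were 3.74 and 3.7 with loess, and 3.78 and 3.18 with median centring. From 10 min on both arrays lay above 1, and the folds at 60 and 120 min overlapped between arrays. At 120 min the processed signal was 3040 in the PACAP38 RNA and 550 in the control RNA.

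Ppp1r15a (A_44_P997825, rn4 chr1:95994395-95994897) encodes GADD34, the stress-induced partner of protein phosphatase 1. It started from 0.935 (1.07 and 0.815) after 5 min, 1.11 (1.37 and 0.907) after 10 min and 1.55 (1.75 and 1.38) after 15 min. The later folds were 2.94 (3.75 and 2.3), 4.89 (5.77 and 4.14) and 6.46 (9.32 and 4.48). Its arrays differed more than those of Cebpb, by up to 1.06 on the log2 scale at 120 min, where the array with PACAP38 in Cy5 gave the higher fold. At 120 min the processed signal was 10600 in the PACAP38 RNA and 1640 in the control RNA.

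Atf3 (A_43_P11616, rn4 chr13:107191582-107191614), a bZIP factor that mostly represses its targets and is induced by many kinds of stimuli, had the highest fold of the members. The fold was already 3.75 (5.08 and 2.77) after 15 min, reached 15.2 (19 and 12.2) after 30 min, peaked after 60 min with 19.6 (26.2 and 14.7) and stood at 16 (20.9 and 12.2) after 120 min. At 5 min the arrays gave 4.01 and 0.555, and at 10 min 1.88 and 0.514, so no direction was read at these times. Each RNA was well above background on only 1 of the 2 arrays at 5 and 10 min, and the control RNA on only 1 at 15 min. Over the 6 time points the PACAP38 signal read 27.6, 27.4, 119, 1090, 5240 and 2090, and the control signal 18.5, 27.8, 31.6, 71.6, 267 and 131, before any scaling between slides. With background correction by normexp and loess, the last 4 folds of Atf3 became 1.36, 4.13, 11.4 and 5.44, and it was no longer counted at 15 min. Normexp also took Cebpb out of the count at 30 min, with a fold of 1.98. Among the probes counted as higher, Atf3 ranked 27 of 37, 18 of 102, 25 of 357 and 63 of 799 by fold at 15, 30, 60 and 120 min.

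Ppp1r15a stood at 67 of 102, 134 of 357 and 216 of 799 at 30, 60 and 120 min, and Cebpb at 74, 135 and 262 of the same numbers.

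Each fold is set against the control of its own time, and the control signal of some of these genes varied over the time course. Processed signals are not scaled between slides, so to compare time points each log2 signal was taken relative to the 75th percentile of its channel. On this scale the control of Atf3 went from -3.51 at 5 min to -0.04 at 60 min and stood at -1.36 at 120 min, a range of 3.47 on the log2 scale. From 60 to 120 min the control of Atf3 dropped by 1.33 and its PACAP38 signal dropped by 1.61, and each RNA was lower at 120 min in both dyes. The control of Ppp1r15a went from 1.25 at 5 min to 2.28 at 120 min, a range of 1.03, while its PACAP38 signal went from 1.15 to 4.99. The control of Cebpb varied by 0.31, while its PACAP38 signal went from 0.53 to 3.19. Set against the mean control of all 6 time points, an alternative added after the data were seen, the last 4 folds of Atf3 became 2.4, 21.1, 76.3 and 25, with a denominator that includes the controls at 5, 10 and 15 min, which were well above background on only 1 of 2 arrays each. The same alternative gave 9.84 for Ppp1r15a and 5.65 for Cebpb at 120 min.

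**Figure D2:**
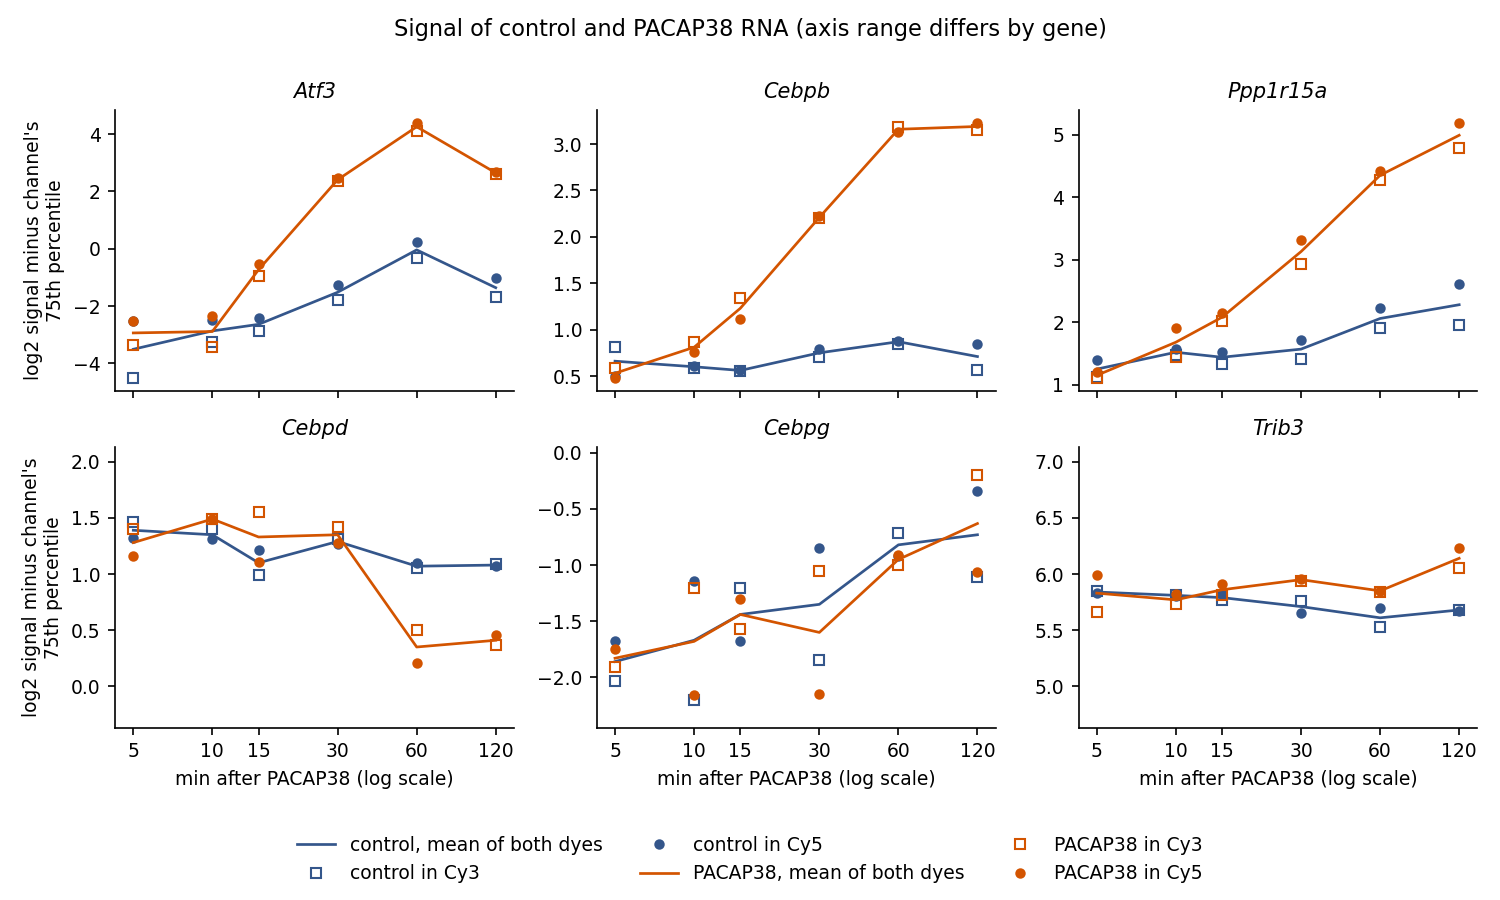
The log2 signal of control RNA (blue) and PACAP38 RNA (orange) relative to the 75th percentile of its channel, against min after PACAP38 on a log scale, for 6 members. Circles are Cy5, squares Cy3 and lines the mean of both dyes, and the y range differs by gene. The control of Atf3 spans 3.47 and peaks with the PACAP38 RNA at 60 min. Its lowest value, at 5 min, was well above background on only 1 of 2 arrays. Cebpd parts at 60 and 120 min through its PACAP38 signal, and the control and PACAP38 RNA of Cebpg follow the same course.

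Whether the ratio moved with time was tested with limma on the 6 dye-averaged time points, as a slope on log2 time with Benjamini-Hochberg adjustment over all 18721 probes fitted. A slope is in log2 units for each increase of 1 in log2 time. Cebpb rose with a slope of 0.63 (SE 0.0485, adjusted p = 0.0307) and Ppp1r15a with 0.67 (SE 0.0475, adjusted p = 0.0307). Of all probes fitted, 0.919% had a called slope upward and 0.379% downward. The slope of Atf3 was 0.99 (SE 0.209, limma adjusted p = 0.0675) and did not pass the threshold. No other member passed, with adjusted p from 0.0788 for Trib3 to 0.889 for the brighter probe of Cebpg.

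Each slide carried 2 neighbouring time points, so slide and time are partly the same. Within slides, the log2 ratio of Cebpb changed by 0.33 from 5 to 10 min, by 0.8 from 15 to 30 min and by 0.18 from 60 to 120 min. The log2 ratio of Ppp1r15a changed by 0.26, 0.91 and 0.4, and that of Atf3 by -0.6, 2.02 and -0.3, where the first step of Atf3 rests on the opposed arrays. With slide as a block the slope was 0.44 (SE 0.156) for Cebpb and 0.52 (SE 0.165) for Ppp1r15a, both with a limma adjusted p of 0.891, and 0 of all probes passed. Without one time point the slope of Cebpb was 0.59 to 0.69, and it passed only without 5 min (adjusted p = 0.0297), with values of 0.12, 0.0781, 0.0528, 0.0756 and 0.0842 without 10, 15, 30, 60 and 120 min in limma. The slope of Ppp1r15a was 0.64 to 0.73 and passed without 5 min (0.0226) and without 30 min (0.0475), with adjusted p of 0.12, 0.0781, 0.0774 and 0.0903 without 10, 15, 60 and 120 min in limma.

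**Figure D3:**
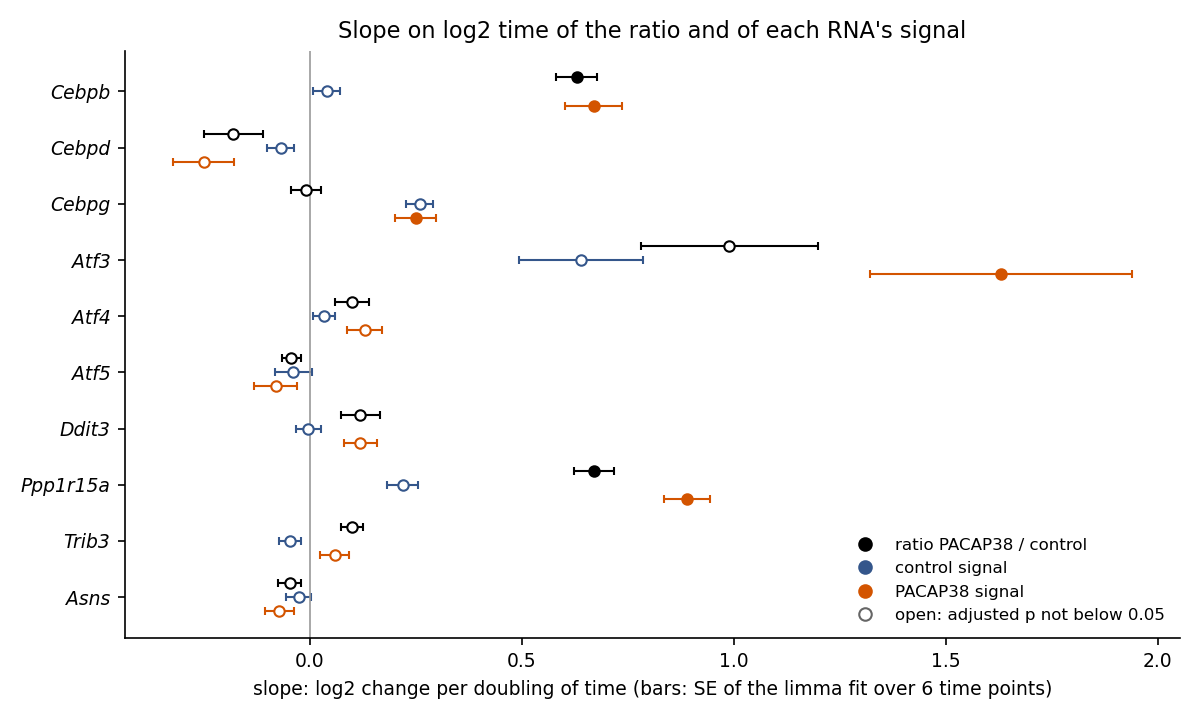
Slope on log2 time of the log2 ratio (black), of the control signal (blue) and of the PACAP38 signal (orange) for the 10 members, with bars for the SE of the limma fit over 6 time points. Filled points passed an adjusted p of 0.05 over all probes fitted: the ratio of Cebpb and Ppp1r15a, and the PACAP38 signal of Cebpb, Cebpg, Atf3 and Ppp1r15a.

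The same fit was made on the signal of each RNA. The PACAP38 signal rose for Atf3 with a slope of 1.63 (SE 0.309, adjusted p = 0.0389), for Ppp1r15a with 0.89 (SE 0.0546, adjusted p = 0.0123), for Cebpb with 0.67 (SE 0.0667, adjusted p = 0.0257) and for Cebpg with 0.25 (SE 0.0492, adjusted p = 0.0397). Of all probes, 4.06% had a called upward slope of the PACAP38 signal and 6.23% a downward one. Without one time point, Atf3 and Cebpg kept this call only without 30 min (limma adjusted p 0.0365 and 0.0334), and it ranged up to 0.104 for Atf3 without 10 min and 0.202 for Cebpg without 120 min. Ppp1r15a lost it without 10, 60 and 120 min and Cebpb also without 15 min, with limma adjusted p up to 0.104. With slide as a block none of the 4 calls held, with adjusted p of 0.857 for Atf3, 0.677 for Ppp1r15a, 0.7 for Cebpb and 0.81 for Cebpg in limma, and 0 of all probes passed. With normexp, loess and Aquantile the slope of Cebpg was 0.062, Atf3 was not called (adjusted p = 0.0537), and Trib3 (0.084, adjusted p = 0.0365) and Cebpd (-0.15, adjusted p = 0.043) were called in limma. No control slope passed in limma: 0% of all probes were called upward and 0% downward, and 3573 had an unadjusted p below 0.05. Among these were the control slopes of the brighter Cebpg probe (0.26, SE 0.032), of Ppp1r15a (0.22, SE 0.0367) and of Atf3 (0.64, SE 0.147), whose limma adjusted p were 0.137, 0.156 and 0.173.

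The mean log2 ratio over the 6 time points was tested against 0 in limma and passed for no probe, with 0% called upward and 0% downward and 1769 probes with an unadjusted p below 0.05. The mean was 2.45 (SE 0.66) for Atf3, 1.16 (SE 0.378) for Cebpb and 1.21 (SE 0.402) for Ppp1r15a, each with an adjusted p of 0.518 in limma. With slide as a block these adjusted p became 0.0375, 0.0347 and 0.039 in limma, in a fit that called 0.86% of all probes upward and 0.353% downward.

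Neither of the other C/EBP factors was counted. Cebpd (A_42_P762829, with no position in the array annotation) encodes C/EBPδ, which in many cells is induced together with C/EBPβ by cytokines and hormones. Its fold was between 0.925 and 1.17 up to 30 min, then 0.606 (0.561 and 0.655) after 60 min and 0.625 (0.642 and 0.608) after 120 min. Both arrays lay below 1 at the last 2 times, but not at the fold of 0.5 that was needed to be counted. Its scaled control signal stood at 1.07 and 1.08 at 60 and 120 min, and its PACAP38 signal at 0.35 and 0.41, against 1.28 to 1.49 up to 30 min. The slope of the ratio was -0.18 (SE 0.0695, limma adjusted p = 0.144). At a fold limit of 1.5, Cebpd was counted as lower at 60 and 120 min and was the only member that was. With that limit 1.11 and 3.85% of all probes were counted as lower at these times. Under normexp the folds of Cebpd at 60 and 120 min were 0.737 and 0.766 with loess, and 0.736 and 0.686 with median centring. The limit of 1.5 was not tried with normexp.

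Cebpg encodes C/EBPγ, a partner of ATF4 and other bZIP factors. Its brighter probe (A_44_P1030594, rn4 chr1:87553213-87553272) gave folds between 0.841 and 1.06, while its scaled control signal went from -1.86 at 5 min to -0.73 at 120 min and its PACAP38 signal from -1.83 to -0.63. The same pool read in either dye differed at several times, for example -1.11 in Cy3 and -0.34 in Cy5 for the control at 120 min. The dimmer probe (A_44_P299451, rn4 chr1:87552921-87552980) did not show this course: its control slope was -0.035 (SE 0.0596) and its PACAP38 slope -0.081 (SE 0.044), at signals near background.

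Among the ATF factors, Atf4 (A_42_P620762, rn4 chr7:118538840-118538899) gave folds between 0.938 and 1.1 up to 60 min and 1.42 (1.34 and 1.52) at 120 min, with both arrays above 1. Its PACAP38 signal was 16900 at 120 min against a control of 11900. Atf5 (A_42_P665879, rn4 chr1:95284097-95284156), a further ATF factor of the amino acid and mitochondrial stress responses, gave 0.909 to 1.03 at all times. Its slope was -0.043 (SE 0.0224, limma adjusted p = 0.238).

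Of the 4 members named above as driven by ATF4, Ppp1r15a was counted as higher, and Ddit3, Trib3 and Asns had folds below 2 throughout. Ddit3 (A_44_P445344, rn4 chr7:67251675-67252036), which encodes the pro-apoptotic factor CHOP, had a fold of 0.878 (0.785 and 0.983) after 15 min, then 1.16 (1.04 and 1.29), 1.44 (1.33 and 1.56) and 1.24 (1.09 and 1.41) at the last 3 times. Trib3 (A_42_P543774, rn4 chr3:142664064-142664123), a pseudokinase that restrains ATF4 and AKT, gave 1.18 (1.15 and 1.21), 1.17 (1.26 and 1.1) and 1.37 (1.46 and 1.28) at the same times. Both arrays lay above 1 for both genes at these 3 times, and none reached 2. With normexp the fold of Ddit3 at 120 min was 1.12 with loess and 0.996 with median centring. Asns (A_44_P480267, rn4 chr4:32759136-32759195), asparagine synthetase, gave 0.91 to 1.09, with 3 times above and 3 times below 1 on both arrays. The ratio slopes were 0.12 (SE 0.0465, adjusted p = 0.149 in limma) for Ddit3, 0.1 (SE 0.0263, adjusted p = 0.0788 in limma) for Trib3, 0.1 (SE 0.0391, adjusted p = 0.162 in limma) for Atf4 and -0.047 (SE 0.0275, adjusted p = 0.287 in limma) for Asns. With time in minutes in place of log2 time, the slopes of Atf4, Trib3 and Cebpd passed with adjusted p of 0.0157, 0.0246 and 0.0493 in limma, in a fit that called 11.8% of all probes upward and 18.2% downward.

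For scale, the 2 arrays of a time point differed by a median of 0.18 to 0.3 on the log2 scale over all probes fitted. The median log2 ratio of the 10 genes, each by its brightest probe, over the 6 times was 0.02, 0.0064, 0.082, 0.14, 0.18 and 0.38, beside 0.0042, -0.00013, -0.0015, -0.017, -0.02 and -0.035 over all probes fitted.

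Time courses like those of the induced members were looked for among the 1396 genes with a probe counted at any time, by the Euclidean distance of the 6 log2 folds. Cebpb and Ppp1r15a were near each other (distance 0.252), and the 3 nearest genes of each were the other one, the transcript TC596397 and Hoxb6. TC596397 had folds of 2.89, 4.9 and 6.84 at 30, 60 and 120 min, and Hoxb6 3.35, 5.1 and 6.57. The nearest to Atf3 were Dusp1, a MAP kinase phosphatase, at 1.57, FQ223375 at 1.82 and Csrnp1 at 1.92, and these distances include the 5 and 10 min folds of Atf3, at which its arrays were opposed. Dusp1 was ahead of Atf3 at 15 min with a fold of 6.81 and, unlike Atf3, had its highest fold, 23.2, at 120 min.

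The wider stress pathways were read from 6 gene lists. Of 15 other bZIP and ATF family genes on the array, 11 passed the filter, 1 was counted as higher and 2 as lower at some time. Nfil3, a repressor of the PAR bZIP family, had folds of 2.54, 4.99 and 7.09 (8.76 and 5.74) at 30, 60 and 120 min and a slope of 0.69 (limma adjusted p = 0.036). Those counted as lower at 120 min were Jdp2, a dimer partner and repressor of AP-1 and ATF factors, and Atf7ip, which binds ATF7 and is no bZIP factor itself. Jdp2 was well above background in the control RNA but not in the PACAP38 RNA, so that it was at least 2.26-fold lower, and Atf7ip had a fold of 0.397 (0.449 and 0.351). The median of the list at 120 min was -0.54 on the log2 scale, beside -0.035 over all probes fitted.

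Of 20 genes for eIF2, its kinases, phosphatase subunits, exchange factor and some of their regulators, 19 passed the filter, 1 was counted as higher and 1 as lower, both at 120 min. Both were regulators, and none of the genes for eIF2, the kinases, the phosphatase subunits or the exchange factor in this list, which leaves out Ppp1r15a as a member, was counted. Impact, an inhibitor of the kinase GCN2, had a fold of 2.54 (2.55 and 2.54), and Nck1, an adaptor protein linked to the eIF2 phosphatase, 0.328 (0.313 and 0.344). Of the kinases, Eif2ak2 had a fold of 0.49 (0.424 and 0.566) at 120 min, short of the limit on the array with PACAP38 in Cy3. Eif2ak3 was the gene that did not pass the filter. Ppp1r15b, the constitutive counterpart of Ppp1r15a, had a fold of 0.998 at 120 min. The median of the list at 120 min was -0.034. Of 33 targets of ATF4, 27 passed, with 1 counted as higher and 1 (Jdp2, which is in both lists) as lower, and their median was 0.19. The higher one was Slc1a4, a neutral amino acid transporter, with 2.29 (2.47 and 2.13) after 60 min and 3.75 (4.99 and 2.81) after 120 min. Chac1, a glutathione-degrading enzyme that is a sensitive ATF4 target, had a fold of 1.4 at 120 min. Chac1, Ppp1r15b, Eif2ak2 and Eif2ak3 were picked after their values were seen.

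All 21 genes of the tRNA synthetase list passed, and 1, Eprs, was counted as higher, with a fold of 2.58 (2.59 and 2.58) at 120 min, where the median of the list was 0.26. All 26 genes of the unfolded protein response list passed, and 1, Dnajb9, a co-chaperone of the endoplasmic reticulum, was counted as higher, with 3.41 (3.22 and 3.61) at 120 min. The median of that list was 0.12. Of 10 genes in a list drawn broadly around CHOP, 7 passed, with 3 counted as higher and 1 as lower and a median of 0.45. Whether its genes, Trib1 and Dapk1 among them, are targets of CHOP in these cells was not tested. Trib1, a pseudokinase that marks C/EBP factors for degradation, had folds of 10.4 (12.2 and 8.89) and 13.1 (16.8 and 10.2) at the last 2 times and a slope of 0.89 (limma adjusted p = 0.0439). Of the genes of apoptosis in that list, Dapk1 was at 4.96 (6.51 and 3.78) and Bcl2l11 at 2.47 (2.8 and 2.18) at 120 min, while Bbc3 was lower, with 0.381 (0.426 and 0.342) after 60 min and 0.291 (0.323 and 0.261) after 120 min. Of all 18722 probes that passed the filter, 4.53% were counted as higher and 3.96% as lower at any time, and none of the lists was tested as a set.

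**Figure D4:**
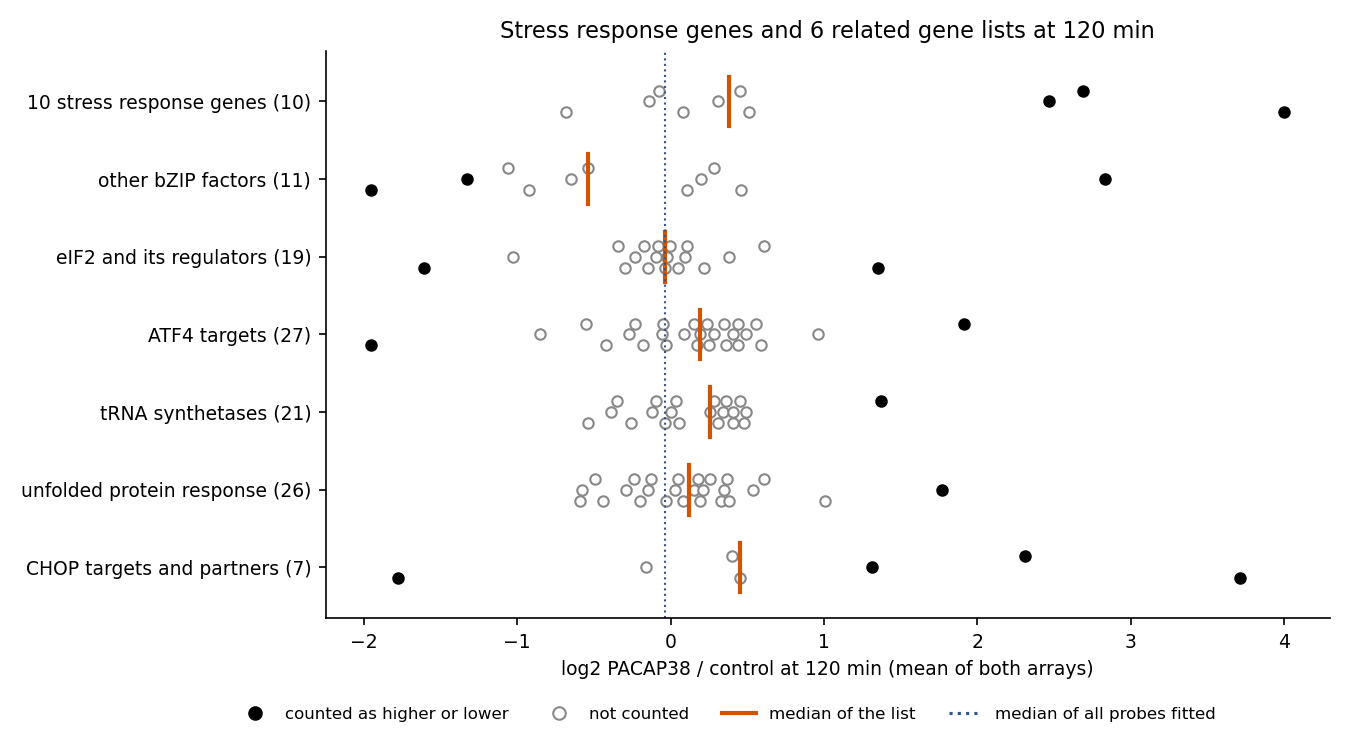
The log2 ratio of PACAP38 over control at 120 min (x axis) for the 10 members and the genes of 6 lists that passed the filter, 1 point a gene, with the number of genes in parentheses. Filled points were counted as higher or lower, orange bars are medians and the dotted line is the median of all probes fitted, -0.035. The median runs from -0.54 for the other bZIP factors to 0.45 for the CHOP list, with Trib1 of the CHOP list and Nfil3 of the bZIP list at the right end of theirs. The point of Jdp2 at the far left of 2 lists is a measured value with its PACAP38 RNA not well above background.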

How the data were processed

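RNA of PACAP38-treated and control PC12 cells, pooled (n = 6), was compared at 6 time points on 12 dual-colour Agilent rat arrays, as a dye swap for each time point, on 3 slides scanned on 1 day. The authors extracted the spots with Agilent Feature Extraction, given as version 11.0.1.1 in the labels and 12.0.3.1 in the file headers. Processed intensities, as deposited, are background-subtracted and LOWESS dye-normalized, and the deposited mean and background intensities are those of the scanner. The log10 ratios in the authors' table of ratios give Cy5 over Cy3 and were not turned for the dye swap. The p-value that was deposited for each spot comes from the error model of the authors' software.

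Folds of PACAP38 over control came from the processed intensities, turned by dye. Spots with an outlier flag (197 to 267 an array) were dropped along with the control spots, and the spots of a probe were averaged, with their median p-value. The number of arrays limits the precision. Signals were compared across time after scaling each channel to its 75th percentile. The limma fits kept a probe if the same RNA was well above background on both arrays of some time point, with an adjusted p below 0.05 as the threshold, and a time point with an outlier flag on 1 array was left out for that probe. No member lost a time point this way. A gene's value is that of its brightest probe. If both arrays of a time point left one RNA not well above background, the fold is a lower bound. Tools were R 4.3.3 with limma 3.58.1, Python 3.11.15 and matplotlib 3.10.9, and the fits were tested on simulated data.

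Members and gene lists were chosen with earlier results of these data known. Named genes are the members, up to 4 counted genes of each list with the largest change at 120 min, and the 3 nearest time courses of each counted member. Ppp1r15b, Chac1, Eif2ak2 and Eif2ak3 were named in addition, after their values were seen. Gene names follow the files and positions the array annotation on rn4, and the part of the gene under a probe was not analysed here. The alternatives tried were normexp correction (offset 50) with loess or median centring, the authors' ratios, 1 array alone, other limits and filters, slide as a block, other time scales, other scalings of the channels and leaving out each time point. The mean control and the count without Atf3 were added after the data were seen. Proteome data of the same study were not used here.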

Additional observations from a re-analysis of the deposited data

Results flagged for a closer look

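The ratios of Cebpb and Ppp1r15a differed between time points by a test, with slopes on log2 time of 0.63 and 0.67. With slide as a block both lost the call, with a limma adjusted p of 0.891, and without one time point Cebpb passed only without 5 min and Ppp1r15a only without 5 or 30 min. Cebpd, Cebpg, Atf5, Ddit3 and Asns had both arrays above 1 at one time point and both below 1 at another, and this difference was not tested. Over the time points where both arrays lay on the same side of 1, the highest and lowest log2 ratios of Cebpd, at 15 and 60 min (folds of 1.17 and 0.606), were 0.94 apart. Those of Ddit3, at 60 and 15 min (1.44 and 0.878), were 0.72 apart. Those of Asns, at 10 and 30 min (1.09 and 0.91), were 0.25 apart. Those of Atf5, at 10 and 120 min (1.01 and 0.909), were 0.15 apart. Those of Cebpg, at 120 and 30 min (1.06 and 0.841), were 0.33 apart. With both Cebpg probes averaged, the folds at 120 and 30 min were 0.872 and 1.05, in the opposite order.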

How the results depend on the processing

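Atf3, Cebpb and Ppp1r15a were counted as higher at 60 and 120 min under both normexp settings, the authors' ratios, each array alone, the other fold and p-value limits and the filter on dim probes, and the direction of no counted fold was reversed. At 15 min the count of 1 (Atf3) became 0 with normexp and loess, 0 with normexp and median centring and 0 without Atf3, and with 1 array alone the count at 5 min lay between 0 and 1. At a fold limit of 1.5 the count as lower was 1 at 60 min and 1 at 120 min in place of 0. The 2 member slopes that passed became 0 with median centring, without the filter on dim probes, with slide as a block and for late against early time points, and 4 upward and 1 downward with time in minutes, and leaving out an array or a time point gave 0 to 2. Over all probes the slope passed for 243, against 107 with normexp and loess, 1 with median centring, 0 without the filter, 978 with both RNAs well above background on all arrays, 0 with slide as a block, 5613 with time in minutes, 0 for late against early and 0 to 415 with an array or time point left out. The 4 member slopes of the PACAP38 signal became 0 with slide as a block and 0 to 4 without one time point. Under normexp, loess and Aquantile they remained 4 in number, with Trib3 in place of Atf3, and 1 (Cebpd) was called downward. Over all probes the slope of the PACAP38 signal passed for 1927, against 0 with slide as a block and 0 to 2290 without one time point. The mean ratio passed for 0 members, against 3 with slide as a block and 0 to 1 with one array or time point left out. The fit of the mean with slide as a block called 0.86% of all probes upward and 0.353% downward. The causes were not tested. With slide as a block only the step within each slide is left for a slope, while for the mean the spread between slides leaves the error. The early folds of Atf3 are limited by signals near background.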
